A study of Mus musculus with 2 samples.

Results

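The genes described here are 10 genes of glucose uptake, glycolysis and lactate metabolism, chosen by symbol from the 31053 genes in the deposited matrices. They pair the isoenzymes made by male germ cells with the forms used by most other cells: Gapdhs with Gapdh, Pgk2 with Pgk1, Ldhc with Ldha and Ldhb, and the sperm enolase Eno4, and they add the hexokinase Hk1 and the glucose transporter Slc2a3. All 10 gene identifiers of the files matched the mouse annotation. The samples were testes of 8-month-old mice, dissociated with enzymes and profiled cell by cell on a droplet platform. The mice were wild type or carried an Igf2bp1 knockout, which the series text calls conditional (cKO), and each genotype gave 1 library. The sources used here name no Cre driver, deleted exon or strain, and how many animals entered each library is not clear from the labels. With 1 library per genotype no difference between genotypes had a replicate check, so no p-value is given, and every interval printed is a 95% interval that covers counting error only.

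Glycolysis splits glucose into pyruvate and yields ATP, and lactate dehydrogenase then converts pyruvate and lactate into each other. Sperm carry out this pathway along the tail, where GAPDHS is anchored to the fibrous sheath, and the enzymes GAPDHS, PGK2 and LDHC are made almost only in the male germ line and are needed for normal sperm motility or fertility. Meiotic and later germ cells are fed lactate by Sertoli cells, the nurse cells of the tubule. Pgk1 lies on the X chromosome, which is silenced during male meiosis, whereas Pgk2 is an autosomal copy of it without introns.

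Expression was read as unique molecular identifier (UMI) counts, each UMI standing for 1 captured transcript, and levels are given as counts per 1000000 UMIs of a cell class (CPM), which are not divided by transcript length. The wild type library held 17362 barcodes with 121257944 UMIs and the knockout library held 17968 with 98033324, and 106 barcode sequences occurred in both. Only 30.8% of the kept wild type barcodes (5238) and 23.6% of the kept knockout barcodes (4181) fell in clusters that could be named from markers. Of the remainder, 11430 wild type and 8083 knockout barcodes resembled free RNA. Mixtures made up 272 wild type and 5410 knockout barcodes, so they were far more frequent in the knockout library. The largest mixed cluster, which scored highest for Leydig cell markers, held 21 and 3961 barcodes. A further 62 wild type and 29 knockout barcodes were left unnamed for other reasons. A class name stands for cells like that type and no more. Spermatogonia numbered 131 wild type and 78 knockout cells, early spermatocytes 84 and 36, and late spermatocytes 1388 and 401. There were 827 and 347 round spermatids, followed by 1865 and 925 elongating spermatids. All 10 markers of each of these classes were detected in its cells in both libraries. Knockout early spermatocytes were too few for a comparison of genotypes, for which at least 50 cells per library were asked. Igf2bp1 itself stood at 67.7 CPM in wild type spermatogonia and 26.7 CPM in knockout spermatogonia (log2 ratio -1.34, -2.20 to -0.56). Which part of the transcript these UMIs tag is not known, so they are a limited check of the deletion.

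Free RNA from broken cells was abundant for several of these genes, and was measured in the lowest decile of barcodes (1722 wild type barcodes with a median of 968 UMIs and 1776 knockout barcodes with a median of 1301). In wild type and knockout it held Ldhc at 7384 and 7642 CPM, Gapdhs at 1444 and 1222 CPM and Pgk2 at 565 and 583 CPM. The somatic forms were scarce in it, with Gapdh at 21.0 and 31.6 CPM and Pgk1 at 5.40 and 9.54 CPM. For each class other than elongating spermatids, the share that free RNA could supply was estimated from its protamine and transition protein UMIs. This free RNA estimate is an upper one. Any of these transcripts that a class makes itself, as round spermatids may, are counted in it as free RNA. It is printed beside the levels below. For elongating spermatids, which make protamines, it cannot be computed.

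The promoters of the 3 pairs that the results turn on are shown here. Gapdhs and Gapdh were highest in different germ cell classes, and so were Pgk2 and Pgk1. Ldhc and Ldha were highest in the same class, as described further on. Each window runs from 250 bases before to 50 bases after a RefSeq transcript start on GRCm38.p6, printed 5′ to 3′ on the gene's own strand. Capitals mark matches to 5 motifs searched on both strands: the TATA box (TATAAA), the cAMP response element or CRE (TGACGTCA), the shorter CRE core (TGACGT), the GC box (GGGCGG) and the CCAAT box (CCAAT). The windows are chr7:30743632-30743931 (minus strand) for Gapdhs, chr6:125165724-125166023 (minus) for Gapdh, chr17:40208560-40208859 (minus) for Pgk2, chrX:106186850-106187149 (plus) for Pgk1, chr7:46861013-46861312 (plus) for Ldhc and chr7:46845554-46845853 (plus) for Ldha.
Gapdhs: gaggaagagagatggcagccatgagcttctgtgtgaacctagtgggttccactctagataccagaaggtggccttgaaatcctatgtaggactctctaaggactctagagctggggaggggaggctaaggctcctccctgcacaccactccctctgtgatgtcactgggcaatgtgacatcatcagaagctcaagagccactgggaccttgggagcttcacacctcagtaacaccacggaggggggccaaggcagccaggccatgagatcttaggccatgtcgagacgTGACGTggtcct
Gapdh: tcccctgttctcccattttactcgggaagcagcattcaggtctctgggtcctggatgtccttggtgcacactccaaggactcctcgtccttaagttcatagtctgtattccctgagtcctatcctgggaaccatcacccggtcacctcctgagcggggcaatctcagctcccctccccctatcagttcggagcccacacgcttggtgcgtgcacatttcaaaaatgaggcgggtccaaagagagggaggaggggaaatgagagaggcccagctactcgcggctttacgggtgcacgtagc
Pgk2: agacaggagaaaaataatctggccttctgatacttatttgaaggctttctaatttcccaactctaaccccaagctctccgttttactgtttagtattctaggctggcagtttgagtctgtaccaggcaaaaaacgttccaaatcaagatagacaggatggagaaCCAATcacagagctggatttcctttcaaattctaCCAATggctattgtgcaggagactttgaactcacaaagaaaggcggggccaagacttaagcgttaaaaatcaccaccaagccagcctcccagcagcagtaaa
Pgk1: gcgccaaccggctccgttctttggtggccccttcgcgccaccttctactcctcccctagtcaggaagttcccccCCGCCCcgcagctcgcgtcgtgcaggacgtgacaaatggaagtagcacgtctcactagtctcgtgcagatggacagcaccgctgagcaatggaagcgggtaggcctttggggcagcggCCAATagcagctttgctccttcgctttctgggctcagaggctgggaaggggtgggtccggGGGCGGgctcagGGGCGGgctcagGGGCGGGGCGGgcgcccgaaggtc
Ldhc: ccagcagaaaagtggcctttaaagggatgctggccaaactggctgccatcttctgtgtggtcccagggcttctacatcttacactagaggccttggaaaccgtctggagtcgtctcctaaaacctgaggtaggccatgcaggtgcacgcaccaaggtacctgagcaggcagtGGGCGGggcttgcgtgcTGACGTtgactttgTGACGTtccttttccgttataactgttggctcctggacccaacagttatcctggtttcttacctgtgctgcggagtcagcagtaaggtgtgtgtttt
Ldha: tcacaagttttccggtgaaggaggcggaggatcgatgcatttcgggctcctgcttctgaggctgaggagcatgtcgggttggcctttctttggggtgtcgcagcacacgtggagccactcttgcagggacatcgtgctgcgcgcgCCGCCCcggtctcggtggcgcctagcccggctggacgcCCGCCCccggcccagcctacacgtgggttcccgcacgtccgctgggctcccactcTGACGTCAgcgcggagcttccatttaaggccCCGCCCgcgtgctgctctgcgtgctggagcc

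CpG dinucleotides were scarcer in the sperm promoter than in the somatic one in each of these pairs. Their observed over expected ratio was 0.173 in Gapdhs against 0.501 in Gapdh, 0.291 in Pgk2 against 0.723 in Pgk1, and 0.424 in Ldhc against 0.882 in Ldha, where the median over all 32851 promoter windows was 0.384. The enolase Eno4 had a ratio of 1.01, and no window of its partner Eno1 was compared. The windows of Ldhb and Hk1 had ratios of 0.696 and 0.0507, and a second start of Hk1 had 0.665. No window of the 9 genes in the promoter table held a TATA box, which 13.6% of all windows held. Slc2a3 had no entry in it. The RefSeq starts of Gapdh and Ldha used here lie 694 and 4329 bases inside the outer 5′ end of the gene in the GENCODE annotation, so other starts exist.

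The motif matches also differed within pairs. The Pgk1 window held 5 GC boxes, some overlapping, and 1 CCAAT box, whereas the Pgk2 window held 2 CCAAT boxes and no GC box. A GC box was present in 35.7% of all windows and a CCAAT box in 37.4%. The Ldha window held 1 full CRE, whose palindrome also matches the core on each strand, and 3 GC boxes. The Ldhc window held 2 CRE cores and 1 GC box, and the Gapdhs window held 1 core, 38 bases after the start. Full CREs occurred in 1.79% of all windows and cores in 7.51%. The Gapdh window held none of the 5 motifs. In the annotation Ldha and Ldhc are neighbours on the same strand of chromosome 7, with 5.58 kb between the end of Ldha (chr7:46841475-46855627) and the start of Ldhc (chr7:46861203-46878142). These matches describe the letters only.

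Across the germ cell stages the 10 genes followed distinct courses. Gapdhs, Pgk2 and Hk1 had their highest germ cell level in elongating spermatids. Ldhc, Ldha and Slc2a3 had theirs in late spermatocytes and Eno4 in round spermatids. Gapdh had its highest level in spermatogonia. These highest classes were the same in both libraries. Pgk1 was highest in spermatogonia in wild type, on 20 UMIs, and in early spermatocytes in the knockout, on 6 UMIs. Ldhb was low in every germ cell class, and its early spermatocyte and spermatogonial values rest on at most 8 UMIs.

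**Figure D1:**
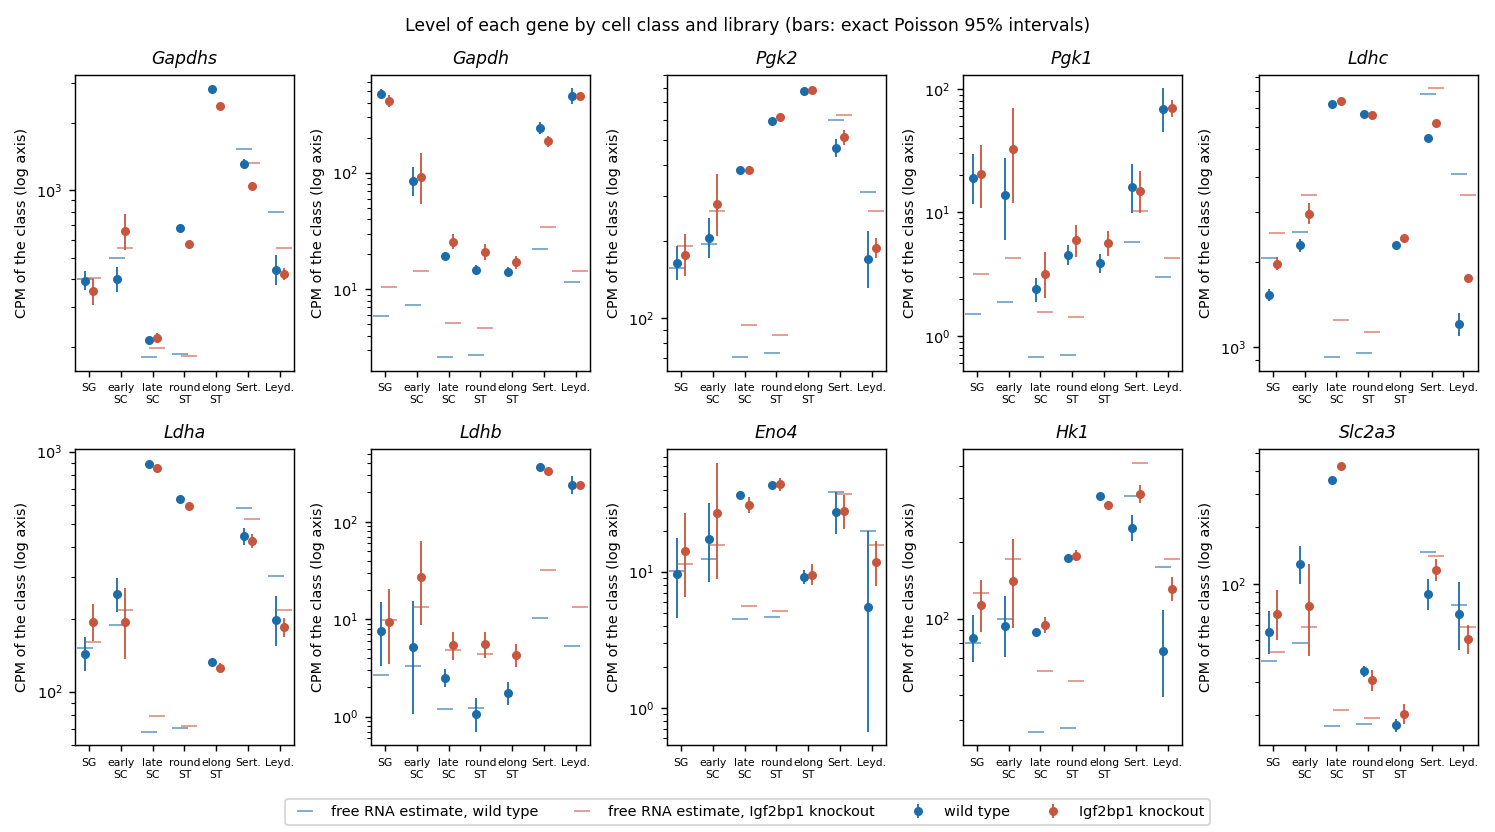
Levels of the 10 genes (CPM, log axis) by cell class in the wild type and knockout libraries; points are summed levels, bars are Poisson intervals and dashes mark the free RNA estimate, which is omitted for elongating spermatids (SG, spermatogonia; SC, spermatocytes; ST, spermatids; Sert., Sertoli cells; Leyd., Leydig cells). Gapdhs climbs from 215 CPM in wild type late spermatocytes to 2837 CPM in elongating spermatids, while Gapdh is highest in spermatogonia.

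Gapdhs encodes the sperm glyceraldehyde-3-phosphate dehydrogenase and lies at chr7:30729775-30743681 (minus strand). Its level in elongating spermatids was 2837 CPM in wild type (2819 to 2855) and 2375 CPM in the knockout (2349 to 2402). Over single cells of this class the quartiles were 2427 and 3631 CPM around a median of 2976 in wild type, and 1920 and 2849 around 2390 in the knockout. The gene thus gave UMIs in most elongating spermatids of both libraries, and the middle ranges of the cells overlapped. Round spermatids stood at 674 and 575 CPM, above free RNA estimates of 186 and 181 CPM. Late spermatocytes stood at 215 and 218 CPM, close to their estimates of 180 and 198 CPM. Spermatogonia stood at 394 and 353 CPM, no higher than the free RNA estimates of 402 and 404 CPM, so Gapdhs expression there was not detectable above background. From late spermatocytes to elongating spermatids the level was 13.2-fold higher in wild type and 10.9-fold higher in the knockout.

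Gapdh, the form found in nearly all somatic cells (chr6:125161715-125166467, minus strand), ran the other way. Spermatogonia held 477 CPM in wild type (436 to 521) and 414.5 CPM in the knockout (366 to 468), against free RNA estimates of 5.85 and 10.4 CPM. Late spermatocytes held 19.2 and 25.5 CPM, which is 24.9-fold and 16.2-fold lower. At least 1 Gapdh UMI was seen in 84.7% of wild type and 80.8% of knockout spermatogonia, and in 33.2% and 34.6% of round spermatids. The lowest decile of barcodes, at much lower depth, showed 1.97% and 3.94%. With each cell thinned to 2000 UMIs, which leaves out 8 wild type and 3 knockout spermatogonia, the shares were 54.5% and 44.0% in spermatogonia and 2.78% and 4.04% in round spermatids. Gapdh has many processed copies elsewhere in the genome, and no source used here says how reads shared with them were counted.

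Of the UMIs of this pair, Gapdhs took 45.2% in wild type spermatogonia (42.0 to 48.5) and 46.0% in knockout spermatogonia (41.5 to 50.5), and the spermatogonial Gapdhs level is within the free RNA estimate. In early spermatocytes the share was 82.4% and 87.7%, with Gapdhs at 400 CPM against a free RNA estimate of 499 CPM in wild type and at 654.5 CPM (543 to 782) against 549.6 CPM in the knockout, so this share too may be background. It was 91.8% and 89.5% in late spermatocytes, 97.9% and 96.5% in round spermatids, and 99.5% and 99.3% in elongating spermatids. Both genes together gave 871 and 768 CPM in spermatogonia, 235 and 244 CPM in late spermatocytes, and 2851 and 2392 CPM in elongating spermatids. The Gapdhs free RNA estimates of 402 and 404 CPM in spermatogonia and of 180 and 198 CPM in late spermatocytes lie within these sums and make up most of the late spermatocyte ones.

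**Figure D2:**
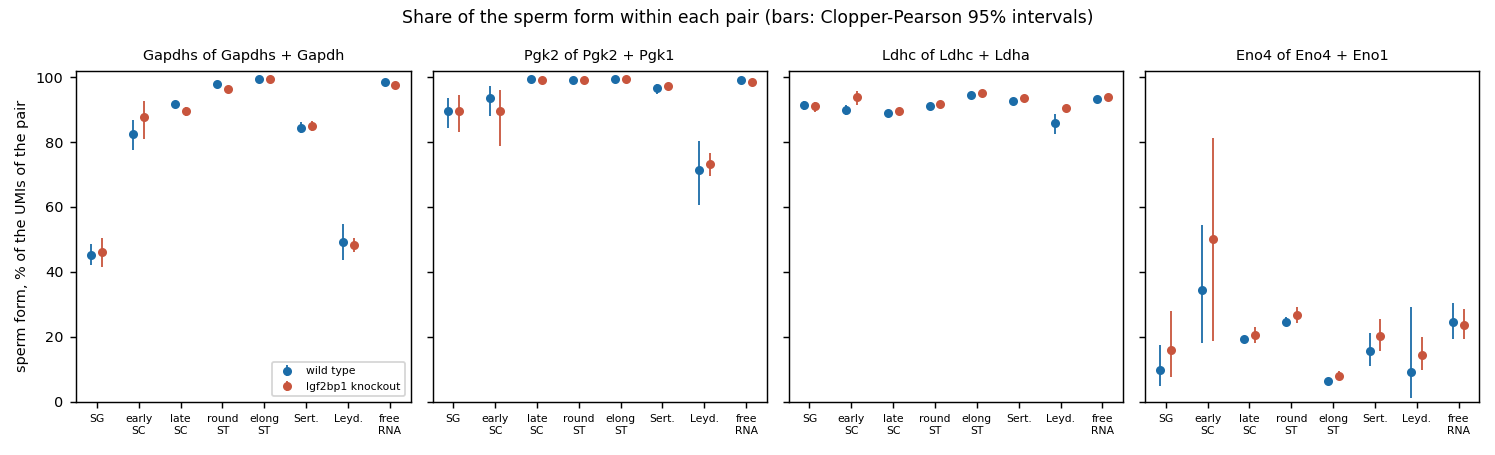
Share of each pair's UMIs that came from the sperm form (percent, 0 to 100) by germ cell class (SG, spermatogonia; SC, spermatocytes; ST, spermatids), in Sertoli and Leydig cells and in free RNA, with Clopper-Pearson intervals, for Gapdhs with Gapdh, Pgk2 with Pgk1, Ldhc with Ldha, and Eno4 with Eno1. The Gapdhs share goes from 45.2% in wild type spermatogonia to 99.5% in elongating spermatids, whereas the Ldhc share lies between 89.0% and 95.1% in the 4 compared classes. In spermatogonia the levels of Gapdhs and Ldhc lie within their free RNA estimates, so their shares there may be background.

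Pgk2 and Pgk1 encode phosphoglycerate kinase, which forms ATP in the step after GAPDH. Pgk2 (chr17:40207015-40208640, minus strand, a single transcript) stood at 381 and 381 CPM in late spermatocytes, 594 and 616 CPM in round spermatids, and 777 and 782 CPM in elongating spermatids. The free RNA estimates in late spermatocytes were 70.4 and 94.5 CPM, far below the measured levels. The 165 and 177 CPM in spermatogonia were near their estimates of 157 and 192 CPM. Elongating spermatids were 2.04-fold and 2.06-fold above late spermatocytes. Pgk1 (chrX:106187100-106203699, plus strand) was 19.1 and 20.4 CPM in spermatogonia and 2.39 and 3.17 CPM in late spermatocytes, and it was 4.51 and 5.92 CPM in round spermatids. Pgk2 made up 89.6% and 89.7% of the pair in spermatogonia and 99.05% to 99.5% in late spermatocytes and spermatids. Pgk1 too has processed copies in the genome that could share reads with it.

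The Ldha, Ldhb and Ldhc genes together gave 8113 and 8230 CPM in late spermatocytes, more than the GAPDH or PGK genes there, and 2422 and 2564 CPM in elongating spermatids, where the GAPDH genes gave 2851 and 2392 CPM. Ldhc, the germ cell subunit, stood at 7222 CPM in wild type late spermatocytes (7193 to 7250) and 7371 CPM in the knockout (7308 to 7434). It was 6630 and 6591 CPM in round spermatids and 2288 and 2435 CPM in elongating spermatids, 2.90-fold and 2.71-fold lower than in the round cells. Ldha, the muscle-type subunit, was 889 and 853 CPM in late spermatocytes, 637 and 591 CPM in round spermatids and 133 and 125 CPM in elongating spermatids. Its level in elongating cells was 6.69-fold and 6.81-fold under that of late spermatocytes. In spermatogonia Ldhc (1525 and 1969 CPM) was under its free RNA estimates of 2057 and 2523 CPM, and Ldha (144 and 195 CPM) was near estimates of 152 and 160 CPM. The Ldhc share of Ldhc and Ldha was 91.4% and 91.0% in spermatogonia, 89.0% and 89.6% in late spermatocytes, 91.2% and 91.8% in round spermatids and 94.5% and 95.1% in elongating spermatids. Both subunits were thus highest in the same class, whereas Gapdhs and Gapdh were highest in different classes. Ldha has processed copies in the genome, and some of its reads may be uncertain.

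Part of any lower level in elongating spermatids follows from the scale, since 10 elongating spermatid markers, the protamines among them, took 28.6% of UMIs there in each library against 1.06% and 0.960% in round spermatids. With these markers left out of the totals, Ldhc was still 2.09-fold lower in wild type and 1.95-fold lower in the knockout, Ldha 3.46-fold and 3.40-fold lower, and Eno4 3.38-fold and 3.32-fold lower than in round spermatids. On the same scale Gapdhs was 5.83-fold and 5.73-fold higher and Pgk2 1.81-fold and 1.76-fold higher, and Hk1 was higher by 1.28 and 1.14 on the log2 scale.

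Eno4, an enolase of the sperm tail (chr19:58943425-58971421, plus strand), had a low level throughout. It was 36.8 and 31.1 CPM in late spermatocytes, 43.0 and 43.7 CPM in round spermatids and 9.18 and 9.51 CPM in elongating spermatids, 4.68-fold and 4.60-fold lower than in round cells. The general enolase Eno1 outnumbered it in each compared germ cell class, at 131 and 120 CPM in round spermatids. Eno4 made up 24.6% and 26.7% of the pair in round spermatids and 6.27% and 7.87% in elongating spermatids. Of the 4 sperm forms it was the only one whose UMIs stayed below those of its partner in all 4 compared germ cell classes.

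Hk1 encodes the hexokinase that phosphorylates glucose, and its locus (chr10:62268855-62379908, minus strand, 20 annotated transcripts) includes both sperm and somatic transcripts, which share 1 row of the matrix and cannot be told apart. Its level was 88.3 and 94.4 CPM in late spermatocytes, 174 and 177 CPM in round spermatids and 305 and 281 CPM in elongating spermatids, a 3.46-fold and 2.98-fold difference from the first to the last. The free RNA estimates for late spermatocytes were 35.8 and 62.1 CPM. In spermatogonia the 83.9 and 113 CPM were near the estimates of 80.0 and 126 CPM.

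Slc2a3 encodes GLUT3, a glucose transporter of high affinity (chr6:122727809-122801640, minus strand). It stood at 359 CPM in wild type late spermatocytes (353 to 365) and 427 CPM in the knockout (412 to 442), far above free RNA estimates of 17.4 and 21.2 CPM. Round spermatids held 34.3 and 30.7 CPM, 10.5-fold and 13.9-fold less. Elongating spermatids held 17.7 and 20.2 CPM. The transcript of this transporter was thus highest at an earlier stage than those of Gapdhs, Pgk2 and Hk1.

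The clusters within the classes placed these courses more finely. Late spermatocytes fell into a cluster with Hist1h1t among its leading genes (214 wild type and 91 knockout cells, median 43380 and 30960 UMIs) and a cluster led by Aurka (1174 and 310 cells). Slc2a3 was 616 and 581 CPM in the Hist1h1t cluster and 272 and 336 CPM in the Aurka cluster. Pgk2 ran the other way, at 215 and 238 CPM in the Hist1h1t cluster and 437 and 465 CPM in the Aurka cluster. Elongating spermatids fell into a cluster of 198 and 75 cells with fewer protamine UMIs and a cluster of 1667 and 850 cells with more. Gapdhs was 1609 and 1510 CPM in the former and 3087 and 2475 CPM in the latter. Ldhc was 5231 and 5530 CPM in the former, still close to its round spermatid level, and 1687 and 2077 CPM in the latter, and Ldha was 311 and 285 CPM against 96.5 and 107 CPM. The 10 genes and the 44 other glycolysis and lactate genes had been left out of the clustering.

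**Figure D3:**
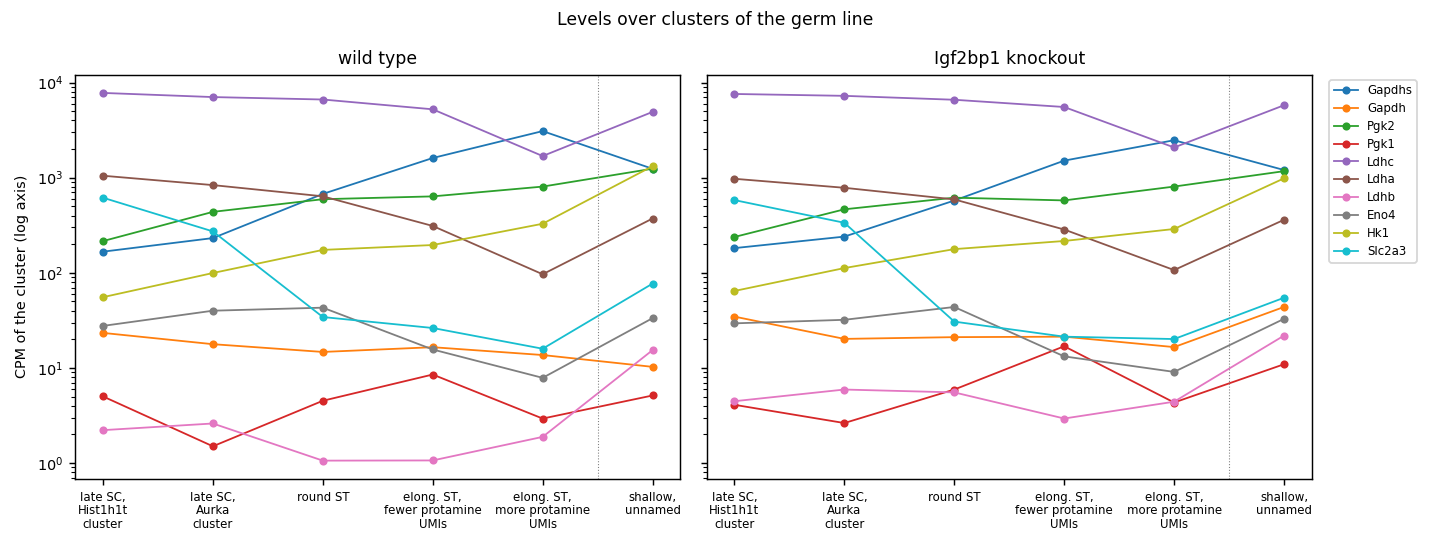
Levels of the 10 genes (CPM, log axis) in 5 named germ cell clusters and 1 unnamed cluster of shallow barcodes, wild type and knockout in separate panels (SC, spermatocytes; ST, spermatids). Slc2a3 drops between the late spermatocyte and round spermatid clusters, and Gapdhs reaches 3087 CPM in wild type and 2475 CPM in the knockout in the elongating cluster with more protamine UMIs.

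The knockout and wild type libraries were compared within each class. A gene was called higher or lower where it differed at least 1.5-fold and its interval left out no difference, among genes with at least 20 UMIs over both libraries. In late spermatocytes, round spermatids and elongating spermatids all 10 genes were measured and 1 of 10 was called, in each case Ldhb as higher in the knockout. Over all genes tested, 5.07% were called higher and 2.65% lower in late spermatocytes, 3.81% and 2.5% in round spermatids, and 6.88% and 1.31% in elongating spermatids. Of 8 genes measured in spermatogonia 0 were called, where 3.04% of all genes were called higher and 2.96% lower. The count of 1 in 10 is therefore near the background in each class. The median log2 ratio of the measured genes was 0.21 in spermatogonia, 0.06 in late spermatocytes, 0.03 in round spermatids and 0.07 in elongating spermatids, against -0.02, 0.03, 0.01 and 0.07 over all genes tested. The 4 sperm forms had medians of 0.01, 0.01 and 0.03 in the last 3 classes and none of them was called.

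**Figure D4:**
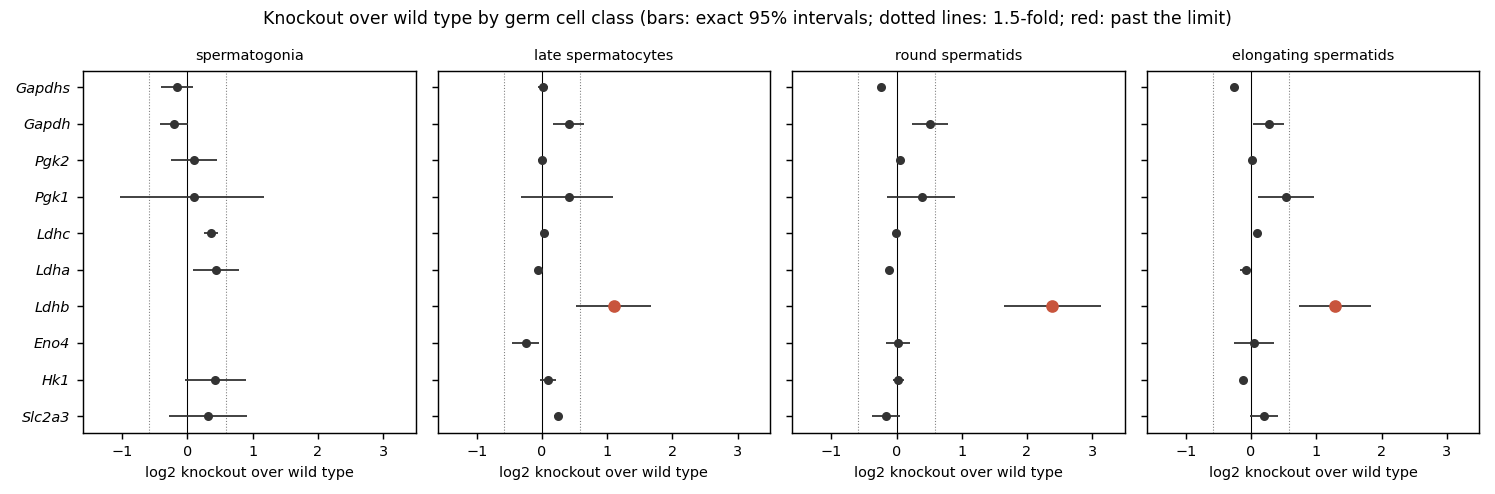
Knockout over wild type log2 ratios of the 10 genes in 4 germ cell classes, with intervals for counting error; dotted lines mark 1.5-fold and red points are genes called. Ldhb is called in late spermatocytes, round spermatids and elongating spermatids, and no other gene measured is called.

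In the 4 germ cell classes each sperm form that was measured differed by less than 1.5-fold. Eno4 was not measured in spermatogonia, where it had 10 and 9 UMIs. In spermatogonia Ldhc was at 0.37 (0.26 to 0.48), at levels under its free RNA estimates in both libraries, and Gapdhs at -0.16 (-0.40 to 0.08). The Gapdhs knockout over wild type log2 ratio was -0.26 (-0.27 to -0.24) in elongating spermatids and -0.23 (-0.28 to -0.18) in round spermatids, and in late spermatocytes it was 0.02 (-0.06 to 0.10). Within elongating spermatids the ratio was -0.09 (-0.16 to -0.02) in the cluster with fewer protamine UMIs and -0.32 (-0.34 to -0.30) in the cluster with more. The free RNA was also lower for Gapdhs in the knockout (1222 against 1444 CPM). Over the alternatives the Gapdhs ratio ran from -0.35 to -0.23 in elongating spermatids. In round spermatids it ran from -0.28 to -0.14. The alternatives took free RNA off as 5% of the UMIs or as 1 lowest-decile barcode per cell. None took off the free RNA estimate printed beside the levels. Beyond these alternatives the part of free RNA in the difference was not tested. Pgk2 was at 0.01 (-0.02 to 0.04) and Ldhc at 0.09 (0.07 to 0.11) in elongating spermatids, and Pgk2 was at 0.05 and Ldhc at -0.01 in round spermatids, all nearer 0 than Gapdhs in those spermatid classes. Eno4 was at -0.25 (-0.46 to -0.04) in late spermatocytes and 0.05 (-0.26 to 0.36) in elongating spermatids.

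Of the somatic forms, Gapdh and Pgk1 lay above 0 in late spermatocytes and both spermatid classes without being called. Ldha and Eno1 lay below 0 in the same classes, also without being called. In the order of stages Ldha was at -0.06 (-0.10 to -0.02), -0.11 (-0.16 to -0.06) and -0.08 (-0.17 to -0.003). Eno1 was at -0.35 (-0.46 to -0.25), -0.13 (-0.24 to -0.02) and -0.30 (-0.39 to -0.22). Gapdh was at 0.41 (0.17 to 0.65) in late spermatocytes, 0.52 (0.24 to 0.79) in round spermatids and 0.27 (0.03 to 0.50) in elongating spermatids. Over 14 alternatives its elongating spermatid ratio ran from -0.13 to 0.80. Pgk1 was at 0.41 (-0.33 to 1.09), 0.39 (-0.14 to 0.90) and 0.54 (0.10 to 0.96) in the same classes. Its intervals in late spermatocytes and round spermatids held 0. In the elongating cluster with fewer protamine UMIs Pgk1 was past the limit, at 8.52 and 16.9 CPM on 48 and 23 UMIs (log2 0.99, 0.20 to 1.73). In spermatogonia, where Gapdh was most abundant, it was at -0.20 (-0.42 to 0.02). The free RNA of the knockout held more Gapdh and Pgk1 than that of wild type (Gapdh 31.6 against 21.0 CPM). With the odds of Gapdhs over Gapdh as the measure, the knockout was lower in round spermatids (log2 odds ratio -0.75, -1.02 to -0.47), past the 1.5-fold limit, and at -0.39 (-0.64 to -0.14) in late spermatocytes, within it. The odds ratio was also within the limit in elongating spermatids (-0.525, -0.76 to -0.29) and in spermatogonia (0.05, -0.28 to 0.37). Slc2a3 was at 0.25 (0.19 to 0.31) in late spermatocytes, with -0.08 (-0.17 to 0.00) in the Hist1h1t cluster and 0.30 (0.22 to 0.38) in the Aurka cluster described above. The Hist1h1t cluster held 214 of 1388 wild type and 91 of 401 knockout cells of the class.

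Ldhb encodes the heart-type lactate dehydrogenase subunit and lies at chr6:142490249-142507957 (minus strand). In late spermatocytes its level was 2.51 CPM in wild type (85 UMIs) and 5.38 CPM in the knockout (39 UMIs), a log2 ratio of 1.10 (0.52 to 1.67). In round spermatids it was 1.06 CPM (27 UMIs) and 5.53 CPM (42 UMIs), a ratio of 2.38 (1.65 to 3.14), and in elongating spermatids 1.75 CPM (58 UMIs) and 4.26 CPM (56 UMIs), a ratio of 1.29 (0.73 to 1.84). Few cells held the transcript at all: 2.78% of wild type and 10.9% of knockout round spermatids held any. Free RNA held Ldhb at 9.60 CPM in wild type and 29.9 CPM in the knockout. The free RNA estimates for round spermatids, which are upper ones, were 1.24 and 4.43 CPM. They lie inside the intervals of the measured levels (0.699 to 1.54 and 3.99 to 7.47). The knockout estimate for late spermatocytes does too (4.85 CPM within 3.83 to 7.36). The wild type estimate for late spermatocytes, 1.20 CPM, lies under the lower bound of its measured level (2.00 CPM).

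Markers of somatic cells were also higher in the knockout in the same classes. The 8 Leydig cell markers summed to 7.58 CPM in wild type and 101 CPM in knockout round spermatids, with 8 of 8 higher in the knockout, and to 11.4 and 118 CPM in late spermatocytes, with 7 of 8 higher. Lhcgr, the luteinizing hormone receptor of Leydig cells, had no UMI in wild type round spermatids or in late spermatocytes of either library. The 12 Sertoli cell markers summed to 14.5 and 44.2 CPM in round spermatids, with 10 of 12 higher, and Fshr had no UMI in knockout round spermatids. In elongating spermatids the Leydig markers summed to 12.7 and 106 CPM (8 of 8 higher) and the Sertoli markers to 20.8 and 47.7 CPM (11 of 12 higher). The macrophage markers summed to 33.8 and 44.8 CPM there. In spermatogonia the Leydig markers summed to 19.1 and 235.5 CPM (8 of 8 higher), with Ldhb at 7.63 and 9.42 CPM on 8 and 6 UMIs. Whether RNA from somatic cells had a part in the Ldhb ratios was not tested. With 1 barcode of free RNA taken off per cell, the Ldhb ratio was 0.65 in late spermatocytes, over 1.5-fold but with an interval that held 0 (-0.09 to 1.34), and 0.38 in elongating spermatids (-0.47 to 1.18), so neither was called. In round spermatids it was 2.35 (1.47 to 3.26) and still called. With the cell that held most Ldhb UMIs left out, the ratio in round spermatids was 2.48.

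Outside the germ line, Ldhb was highest in Sertoli cells and next highest in Leydig cells, whose markers were detected as 11 of 12 in wild type Sertoli cells, 12 of 12 in the knockout and 8 of 8 in Leydig cells. The 766 and 924 Sertoli cells held Ldhb at 369 and 328 CPM against free RNA estimates of 10.2 and 32.2 CPM, and the 46 and 382 Leydig cells held 240 and 241 CPM. Leydig cells also held Gapdh at 458 and 452 CPM and Pgk1 at 68.9 and 69.4 CPM. Gapdh was 241 and 185 CPM in Sertoli cells. The sperm forms in Sertoli cells were under their free RNA estimates: Gapdhs at 1309 and 1045 CPM against 1533 and 1316, Ldhc at 5464 and 6168 CPM against 7841 and 8224. Sertoli barcodes were shallow, with medians of 1310 and 1716 UMIs, close to those of the lowest decile. Of the 10 genes 0 were called between genotypes in Sertoli cells, where 3.43% of all genes were called higher and 2.49% lower, and the Ldhb ratio was -0.17 (-0.35 to 0.01).

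The macrophage class (57 and 451 cells) gave 3 of 10 genes called higher in the knockout, Gapdhs (log2 0.69), Pgk2 (0.95) and Hk1 (0.92), and 1 called lower, Gapdh (-0.74, from 318 to 191 CPM), where 4.63% of all genes were called higher and 7.41% lower. Its protamine UMIs were 43.3% of the free RNA level in wild type and 130% in the knockout, and its granulocyte markers summed to 3069 CPM in wild type and 4.31 CPM in the knockout, so the cells in the class differed between the libraries by these markers. The part of these values in the calls was not tested. In the myoid class (70 and 166 cells) 6 genes were measured and Hk1 was called higher, on 13 and 79 UMIs, where 2.67% of all genes were called higher and 2.53% lower. Its levels there, 163 and 321 CPM, were under free RNA estimates of 287 and 383 CPM, and protamine UMIs in the class were 99.7% and 100% of the free RNA level.

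The other genes of the pathway were followed as a list of 44 transporters, enzymes and lactate carriers. In late spermatocytes 30 of 44 were measured and 1 was called, Pgam1, the general phosphoglycerate mutase, which rose from 9.05 to 14.1 CPM (log2 0.64, 0.30 to 0.97). In elongating spermatids 30 were measured and 2 were called higher, Pgam1 (1.35 and 2.89 CPM) and the D-lactate dehydrogenase Ldhd, on 6 and 14 UMIs. In round spermatids and spermatogonia 28 and 22 were measured and none was called. In Sertoli cells 1 of 27 was called, the glucose phosphate isomerase Gpi1, which fell from 284 to 186 CPM, and free RNA held Gpi1 at 271 and 231 CPM. In myoid cells 1 of 17 was called, again Gpi1, as higher, and in macrophages none of 25. The medians of the list lay between -0.05 and 0.14.

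The listed genes with most UMIs in the germ cell classes were Pgam2, Ldhal6b, Fbp1, Gpi1, Aldoart2 and Bsg. Pgam2, the muscle phosphoglycerate mutase, led in each compared germ cell class, with 2297 and 2405 CPM in late spermatocytes and 1865 and 2062 CPM in elongating spermatids. In spermatogonia it stood at 516 and 572 CPM. No free RNA estimate was made for it, and the part of free RNA in that level was not tested. Ldhal6b, a lactate dehydrogenase A-like gene, gave 1533 and 1502 CPM in late spermatocytes and 1112 and 1125 CPM in round spermatids. Fbp1, fructose-1,6-bisphosphatase, gave 1074 and 1052 CPM in late spermatocytes and 898 and 921 CPM in round spermatids. In elongating spermatids Gpi1 and Aldoart2, an aldolase of sperm, came next to Pgam2 with 713 and 680 CPM and 503 and 503 CPM. Gpi1 was 15.2-fold and 15.1-fold higher there than in round spermatids, so it shared the late course of Gapdhs. Bsg, the chaperone of lactate carriers, was among the leading genes of spermatogonia with 468 and 476 CPM, also without a free RNA estimate. Hk2, named after its values were seen, stood at 54.4 and 45.5 CPM in spermatogonia and 0.265 and 1.38 CPM in late spermatocytes.

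Likeness of course was measured by Pearson correlation of log2(CPM + 1) over 20 class and library profiles, among 8519 genes, as a description without a test, since profiles of a library share its free RNA. Gapdhs was most like H1fnt (0.993), Actrt2 (0.991) and Akap4 (0.990), which encode a spermatid linker histone, an actin-related protein and a fibrous sheath protein. Pgk2 was most like Xrra1 (0.963), Spata24 (0.963) and Spa17 (0.962). Ldhc was most like Tsnaxip1, Stk39 and Dkkl1 (0.979 to 0.980). Among the 10 genes themselves, Ldhc lay nearest Eno4 (0.911) and Ldha (0.877), Gapdhs nearest Hk1 (0.850), and Pgk2 was opposite to Gapdh (-0.68).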

How the data were processed

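Dissociated testis cells were profiled on a 10x Genomics chip and the matrix was made with Cell Ranger, per the labels' protocols. The submitters' processing notes name Cell Ranger 2.2.0, STAR and build mm10, while per the file headers the software version is 3.1.0. The deposited values are raw UMI counts, whole numbers per gene and barcode, as the authors made them. No source used here says which end of the transcript was tagged.

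Barcodes with at least 500 UMIs, 250 genes and at most 20% mitochondrial UMIs were kept (17002 wild type, 17703 knockout). Counts were scaled to 10000 per barcode, and 2000 variable genes, without the 10 genes and the 44 listed pathway genes, gave 30 principal components, 15 neighbours and 23 Leiden clusters at resolution 1 (scanpy 1.11.5, leidenalg 0.10.2). Clusters were named from marker lists. Numeric limits of the naming were chosen once the data had been seen. No doublet caller was run. Raw counts were summed per class and library. Levels have exact Poisson, shares Clopper-Pearson and ratios conditional binomial intervals (scipy 1.17.1). The ratio, interval and call steps were tested on simulated counts. Clustering, naming, pair shares and the free RNA estimate were not tested in this way.

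The genes and lists were chosen with earlier results of these data known. The text names the 10 genes, listed genes that were called or among the 3 with most UMIs in a class, and the 3 genes most like Gapdhs, Pgk2 and Ldhc. Alternatives covered barcode filters, scaling (TMM from edgeR 4.0.16, median of ratios), free RNA, naming of mixed clusters, resolution, thinning, the fold limit and the count filter.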

Additional observations from a re-analysis of the deposited data

How the results depend on the processing

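No ratio of the 10 genes with a call reversed under any alternative run, and over 64 ratios with 828 alternative values, 701 stayed within the main interval and 127 moved. Of the 110 alternative pair shares, 76 stayed and 34 moved. The count of the 10 genes called moved as follows. With 1 free RNA barcode taken off per cell it was 1 in spermatogonia (main 0), 0 in late spermatocytes (main 1), 0 in elongating spermatids (main 1), 2 in Sertoli cells (main 0) and 7 in macrophages (main 4). Of all genes tested, 654 of 8360, 1251 of 14218, 1695 of 12247, 1543 of 5731 and 1753 of 7573 were called there. Thinning to 2000 UMIs gave 0 in late spermatocytes and 0 in round spermatids (main 1 each), where fewer counts pass the filter. It gave 2 in Sertoli cells and 1 in macrophages. Over all genes tested it gave 629 of 8643, 290 of 7256, 392 of 4651 and 566 of 5512 in these classes. Resolution 0.5 gave 2 in spermatogonia and 2 in macrophages, beside 1384 of 10774 and 483 of 6598 genes overall. Resolution 2 gave 1 in spermatogonia and 0 in myoid cells (main 1), beside 573 of 8468 and 170 of 3652. Naming mixed clusters gave 3 in elongating spermatids and 1 in Sertoli cells, beside 2847 of 15316 and 1411 of 12083 of all genes tested. The stricter filter gave 3 in Sertoli cells, beside 504 of 4610 genes overall. A 2-fold limit gave 0 in macrophages and 0 in myoid cells, beside 773 of 8971 and 96 of 2921. Leaving out cells over 3 times the median UMIs, an alternative chosen after seeing the data, gave 2 in elongating spermatids, beside 1224 of 12943 genes overall. Equal weights of clusters also gave 2 there, without a count over all genes. For the listed pathway genes the stricter filter gave 3 in spermatogonia (main 0), 3 in Sertoli cells (main 1) and 2 in macrophages (main 0). All genes tested gave 511 of 8681, 504 of 4610 and 1094 of 8547 there. TMM gave 0 listed genes in late spermatocytes (main 1), 4 in macrophages and 3 in myoid cells (main 1). All genes tested gave 1118 of 14648, 1298 of 8971 and 180 of 2921 under TMM. Beyond the filter on counts the cause was not tested.

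The Ldhb ratio in late spermatocytes was 0.65 with free RNA off and 0.93 after thinning, and in elongating spermatids 0.38 and 0.52, each with an interval that held 0 and so not called. In round spermatids it ran from 2.28 to 3.58 over 13 alternatives, each over 1.5-fold with an interval that left out 0, though the highest, after thinning, rests on under 20 UMIs and was not tested there. Pgk1 in elongating spermatids was called higher with mixed clusters named (0.82), after thinning (1.54), with equal weights (0.89) and without the deepest cells (0.74). The Gapdhs ratio in elongating spermatids ran from -0.35 (TMM) to -0.23 over 14 alternatives and was called in 0 of them.

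Scaling moved the split of all called genes: TMM gave 589 higher and 529 lower in late spermatocytes (main 742 and 388), 686 and 283 in elongating spermatids (main 919 and 175), 824 and 474 in macrophages (main 415 and 665, with the median gene shifted to 0.20) and 141 and 39 in myoid cells (main 78 and 74, median 0.16). No paired analysis was possible because there is 1 library per genotype and the labels give no replicate numbers. Not run for too few cells or 1 cluster were the stricter filter, thinning and resolution 0.5 for myoid cells, resolution 2 for macrophages, and equal weights for round spermatids, Sertoli cells, macrophages and myoid cells. With few UMIs, Ldhb and Pgk1 differences in germ cells are limited by depth.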

Other observations

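An unnamed cluster of shallow barcodes (229 wild type and 47 knockout, median 1598 and 1915 UMIs) with Wbscr25, Tppp2 and Smcp among its leading genes held Hk1 at 1321 and 984 CPM and Pgk2 at 1242 and 1170 CPM. The free RNA of the same libraries held Hk1 at 287 and 383 CPM and Pgk2 at 565 and 583 CPM, and elongating spermatids held Hk1 at 305 and 281 CPM. Gapdhs in these barcodes was 1239 and 1203 CPM and Ldhc 4913 and 5773 CPM, both near or under their free RNA levels. The barcodes belong to no named class and entered no comparison of genotypes.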
